A study of Rattus norvegicus with 67 samples.

Results

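Histone retention in sperm was compared between F3 generation male rats of the atrazine lineage with kidney disease as their only disease and males of the same lineage with no disease. The kidney disease animals are M23, M60 and M64, and the no disease animals are the 17 other males whose counts stand in the same table, so that 20 of the 67 animals of the series enter the comparison. Another 17 animals were used only to read the same windows: atrazine lineage multiple disease animals M48, M57, M58 and M63, whose disease tag includes kidney, no disease animals M59 and M68, control lineage kidney disease animal M7, control lineage multiple disease animal M17 with kidney in the tag, and 9 control lineage animals with no disease. M57, M58, M63 and M17 are also tagged lean, and M48 is also tagged late puberty, testis and lean. In these multiple disease animals kidney disease cannot be told apart from lean. The lineages started from outbred Sprague Dawley gestating females (F0 generation), which received atrazine intraperitoneally at 25 mg/kg on days 8 to 14 of gestation, or the vehicle DMSO in the control lineage. No F3 animal was dosed itself. Kidney disease was called by the study from sections of the kidney, by small glomeruli, a thick Bowman's capsule and cysts. The males were adult, and the sample labels give no age.

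A contradiction in the labels touches the comparison. A treatment tag reads DMSO for kidney disease animals M60 and M64 and for no disease animals M62, M65, M67 and M69, and it reads Atrazine for M23 and the 13 other no disease animals. The titles and the lineage tag put all 20 in the atrazine lineage and were followed. The tag and the disease are unequally spread, with 2 of 3 against 4 of 17 animals tagged DMSO. Of the other animals read, M57, M58, M63, M59 and M68 are tagged DMSO, and M48 and all control lineage animals used, M7, M17 and the 9 with no disease, are tagged Atrazine. Every reading against the control lineage therefore rests on the titles and the lineage tag, against this tag. The labels and methods do not say which littermates or sires the animals share. The assay was ChIP-Seq with an antibody to histone H3. The labels and methods name a pan H3 antibody, but the methods also give an antibody to H3K27me3 as an alternative. Whether the reads are of all H3 or of this modified form is therefore uncertain. The methods also speak of sperm pools, whereas each column of counts is named for 1 animal. The sperm identity of the libraries could not be checked, because the counts are of chromatin and carry no expression marker.

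In maturing sperm most histones are replaced by protamines, which pack the DNA more tightly, and a small share of histones stays at particular places in the genome. A differential histone retention region (DHR) is a place where this share differs between groups. Values are reads in windows of 1000 bp of the Rnor_6.0 build, printed as RPM, the reads of a window per 1000000 reads of its library after scaling by the TMM method, with log2 fold changes of kidney disease against no disease from edgeR's quasi-likelihood test. M23 had 60909772 reads in windows, M60 had 107770271 and M64 had 28396854, and the 17 no disease animals had 22211333 to 80885350.

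Outside the 75 to 78 Mb stretch of chromosome 1, the kidney disease animals had 33 DHRs, of which 25 were decreased and 8 increased. This majority of decreased DHRs was lost with no filter on reads (47.4% decreased of 57 DHRs) and turned with the 4 multiple disease animals added to the kidney disease group (17.4% of 109). Those 4 include M48, whose library had 19.6% of windows without reads, and the fit was not run without it. In the multiple disease animals alone against the 17, 10.1% of windows were higher with M48 and 2.19% without it (p below 0.05, edgeR's quasi-likelihood test). By edgeR's exact test there were 207 DHRs outside the stretch, which overlapped 22 of the 33. The 33 DHRs lay on 16 chromosomes and held 34 windows with p below 0.0001. Of these windows 26 were lower and 8 higher in kidney disease, out of 2462529 windows tested outside the stretch. These are 0.00106% and 0.000325% of the windows. Both are below the 0.01% that the threshold lets through on its own when no window differs. In the whole genome 58 of 2464876 windows passed, of which 26 or 0.00105% were lower and 32 or 0.0013% were higher. The stretch of chromosome 1 held 24 of the higher windows, 1.02% of its 2347 windows, in 17 increased DHRs. No window passed a false discovery rate of 0.05 by edgeR's quasi-likelihood test, where the smallest adjusted p was 0.535. At an unadjusted p below 0.05 the test had 68148 windows, 1.59% lower and 1.17% higher in kidney disease. DESeq2 also had 0 windows past the false discovery rate, and edgeR's exact test had 2, which are the Dip2b window and the first chromosome 16 window described next. No single one of the 33 DHRs is established by an adjusted p of the quasi-likelihood test or DESeq2. The 2 windows rest on the exact test alone.

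At the decreased DHRs the log2 fold changes ran from -6.58 to -1.06 with a median of -1.41, and at the increased DHRs from 0.79 to 1.41 with a median of 1.12. The median over all windows was -0.01. Of the 33 DHRs, 18 were 1 window long, 7 were 2 windows long and 8 were longer. The study's own region annotation, used for positions and names only, covers 23 of the 33, with a gene for 14 and none listed for 9, and the other 10 are not annotated. Whether a window lies in an exon, an intron or a UTR is not given, because no annotation of this build was used here. Chromosome 16 held 5 of the 25 decreased DHRs and 3.32% of the windows tested, and chromosome 5 held 4 with 6.42%.

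**Figure D1:**
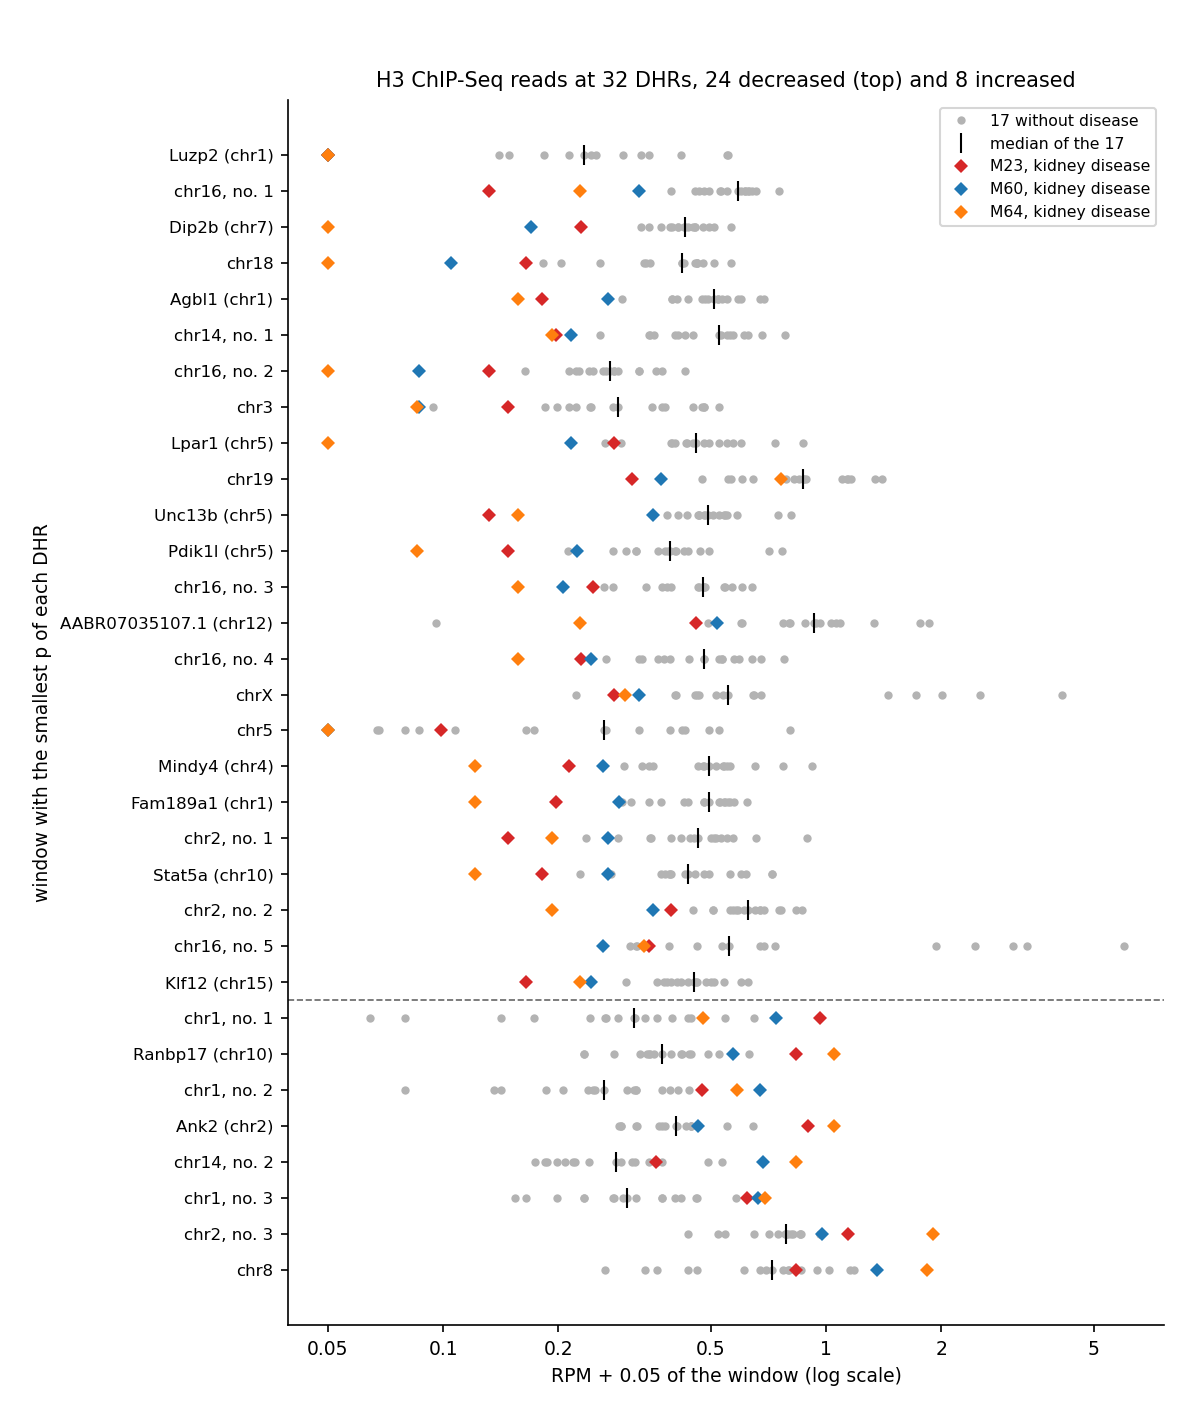
RPM plus 0.05 (log scale) at the window with the smallest p of 32 of the 33 DHRs, decreased above the dashed line and increased under it; grey points are the 17 no disease animals, the bar is their median, and diamonds are the 3 kidney disease animals. The 3 diamonds lie left of the bar at the 24 decreased windows shown and right of it at the 8 increased windows, and at the Luzp2 window the 4 no disease animals at 0 are hidden under the diamonds.

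Among decreased DHRs with a gene, the clearest separation was at Dip2b, a member of the disco-interacting protein family (chromosome 7, 141792001 to 141793000). Retention there was 0.180 RPM in M23, 0.119 RPM in M60 and 0 in M64, against 0.280 RPM at the lowest, 0.378 RPM at the median and 0.516 RPM at the highest of the 17 no disease animals. The groups did not overlap. The log2 fold change was -1.69 ± 0.35 (SE) with p = 4.44e-06 by edgeR's quasi-likelihood test. The whole-genome share of windows where the 3 kidney disease animals lie below all 17 others is 0.0419%, and 11 of the 25 decreased windows are of this kind. The share where they lie above all 17 is 0.0426%, with 3 of the 8 increased windows. Both counts follow from the choice of the windows by this contrast and are given as a description.

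Agbl1, which codes for a carboxypeptidase of the ATP/GTP binding protein family, had a decreased window on chromosome 1 (138121001 to 138122000). M23 had 0.131 RPM, M60 had 0.220 RPM and M64 had 0.107 RPM, and the 17 ran from 0.243 to 0.640 RPM with a median of 0.459 RPM. The log2 fold change was -1.41 ± 0.31 (SE, p = 1.24e-05, edgeR's quasi-likelihood test). No animal of either group fell in the other group's range.

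Unc13b codes for a protein that primes synaptic vesicles for release (chromosome 5, 58556001 to 58557000). It had 0.0817 RPM in M23, 0.303 RPM in M60 and 0.107 RPM in M64, and 0.335 to 0.761 RPM with a median of 0.441 RPM in the 17. The groups were separate, with M60 close to the lowest no disease animal (log2 fold change -1.29 ± 0.30 SE, p = 4.48e-05, edgeR's quasi-likelihood test). The size rests on which animals enter, with -2.35 without M60 and -0.94 without M23 (p = 0.0066, edgeR's quasi-likelihood test).

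Lpar1 codes for a receptor for lysophosphatidic acid (chromosome 5, 75657001 to 75658000). The values were 0.229 RPM in M23, 0.165 RPM in M60 and 0 in M64, with 0.215 to 0.822 RPM and a median of 0.407 RPM in the 17. A single no disease animal lay below M23 (log2 fold change -1.46 ± 0.34 SE, p = 4.11e-05, edgeR's quasi-likelihood test). M64 was expected to have about 12.3 reads per decreased window at the no disease median of these 25 windows and had a median of 3.

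Genes at the other decreased DHRs were Pdik1l, Mindy4, Fam189a1, Klf12, the neighbours Stat5a and Stat3, and the unnamed gene AABR07035107.1. Stat5a and Stat3 code for transcription factors that cytokine receptors activate, and Klf12 for a zinc finger transcription factor. At the Stat5a and Stat3 window (chromosome 10, 88792001 to 88793000) M23 had 0.131 RPM, M60 had 0.220 RPM and M64 had 0.0712 RPM, and the 17 had 0.178 to 0.674 RPM. At the Klf12 window (chromosome 15, 84671001 to 84672000) the 3 animals had 0.114, 0.193 and 0.178 RPM, and the 17 had 0.251 to 0.577 RPM without overlap. These windows stood at the edge of the threshold, with p of 9.23e-05 at Stat5a and Stat3 and 9.91e-05 at Klf12. The nearest window outside the threshold, on chromosome 7 (114779001 to 114780000), had a log2 fold change of -1.37 with p = 0.0001002 (edgeR's quasi-likelihood test).

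Some decreased windows have no gene listed. On chromosome 16 (25101001 to 25102000) M23 had 0.0817 RPM, M60 had 0.275 RPM and M64 had 0.178 RPM, and the lowest of the 17 had 0.344 RPM. The log2 fold change was -1.42 ± 0.29 (SE, p = 4.35e-06, edgeR's quasi-likelihood test), and -2.14 without M60. Another window of chromosome 16 (38183001 to 38184000) had 0.0817, 0.0367 and 0 RPM in M23, M60 and M64 and 0.114 to 0.378 RPM in the 17, with a log2 fold change of -2.27 ± 0.50 SE, and -2.91 without M23. Neither window had any overlap between the groups. On chromosome 14 (108732001 to 108733000) the 3 animals were close together at 0.147, 0.165 and 0.143 RPM, below the 0.208 to 0.730 RPM of the 17.

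The groups overlapped at other decreased windows. On chromosome 18 (62379001 to 62380000) M23, M60 and M64 had 0.114, 0.0551 and 0 RPM, and the 17 had 0 to 0.516 RPM with a median of 0.372 RPM. A single one of the 17 had no reads there. The log2 fold change was -2.26 ± 0.48 SE, and -2.86 without M23. On chromosome 19 (21731001 to 21732000) M64 had 0.712 RPM, above 5 of the 17, while M23 and M60 had 0.261 and 0.321 RPM, below the lowest value of 0.425 RPM.

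Single no disease animals stood far above the others at a few decreased windows. At the chromosome X window (150624001 to 150625000) the 17 ran from 0.172 to 4.09 RPM with a median of 0.506 RPM, and the highest value was that of M24. The next highest had 2.47 RPM. On chromosome 16 (64921001 to 64937000, 16000 bp) M24 had 5.33 RPM per kb against a median of 0.708, and M23, M60 and M64 had 0.604, 0.566 and 0.561 RPM per kb, within the range of the 17 from 0.390. M24 was the highest of the 17 at 4 of the 25 decreased windows. With M24 left out of the no disease mean, the log2 ratio was -1.51 in place of -1.80 at the chromosome X window and -1.72 in place of -2.08 at the chromosome 16 window with the smallest p (64930001). With the highest animal left out at each of the 25 windows, their median log2 ratio was -1.26 in place of -1.31.

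Only 1 window of those tested had no reads in any of the 3 kidney disease animals. It lies on chromosome 1 (113351001 to 113352000), annotated by the study to Luzp2, a leucine zipper protein gene, and to AABR07003504.1. In the scaled reads of M23, M60 and M64 together, 3 reads would be 0.0151 RPM. M60 is the largest of these libraries, and the limit covers counting error only, not the spread between animals. The 17 averaged 0.192 ± 0.161 RPM (SD, n = 17), at least 12.7-fold above that limit of 3 reads over the group. The fitted log2 fold change of -6.58 depends on the prior count of the test and is not a bound (p = 3.28e-07, edgeR's quasi-likelihood test). The window was picked for having no reads in the 3, and it reached a mean of 10 reads through the no disease animals alone. The fold and the p restate this choice and are a description.

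Absence of reads at the Luzp2 window was not particular to the kidney disease animals. Of the 17 no disease animals, M24, M25, M67 and M69 also had none, and the others had 5 to 29 reads, or 0.0897 to 0.504 RPM. Across all 37 animals read, 11 had none, among them control lineage no disease animals M6 and M18, control lineage kidney disease animal M7 and multiple disease animal M48. At the mean of the 17, M23 was expected to have 11.7 reads, M60 20.9, M64 5.38 and M7 12.2. The median of the 17 was 0.184 RPM. The kidney disease group is the only one of several animals in which all are at 0, which is the rule that chose the window.

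The multiple disease animals with kidney in the tag went the other way at Luzp2. M57 had 14 reads (0.468 RPM), M58 had 24 (0.385 RPM) and M63 had 10 (0.375 RPM), all above the no disease median. M48 had none, where 2.34 were expected from its 20151792 reads and its TMM factor of 0.615. The adjacent window (113350001 to 113351000) was also low, with reads in M60 alone of the 3 and a log2 fold change of -3.87 (p = 2.18e-06, edgeR's quasi-likelihood test). The windows on either side of this pair did not pass p below 0.05 (log2 fold changes of -0.31 and 0.07).

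A window on chromosome 3 (27928001 to 27929000, no gene listed) was low in the kidney disease animals and in the multiple disease animals. M23 had 0.0980 RPM, M60 had 0.0367 RPM and M64 had 0.0356 RPM, which are 6, 4 and 1 reads. The 17 ran from 0.0442 to 0.476 RPM with a median of 0.236 RPM, and only M62 lay inside the kidney disease range (log2 fold change -2.25 ± 0.50 SE, p = 1.87e-05, edgeR's quasi-likelihood test, and -2.85 without M23). M48 and M63 had no reads there, M57 had 1 read (0.0334 RPM) and M58 had 3 reads (0.0481 RPM), a mean of 0.0204 ± 0.0243 RPM (SD, n = 4).

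Every one of these 4 animals lay below all 9 control lineage animals with no disease, which had 0.102 to 0.485 RPM with a median of 0.348 RPM at the chromosome 3 window. The share of all windows with this order was not counted, and the window is 1 of 33 that were read in these animals. One of the 4 is M48, whose library had 19.6% of windows without reads. The order is therefore a description. No disease animals M59 and M68, which took no part in choosing the window, had 0.322 and 0.336 RPM. Control lineage kidney disease animal M7 had 0.158 RPM (10 reads), inside the range of both no disease groups. Against the 17, the 4 multiple disease animals had a log2 fold change of -3.12 (p = 4.72e-05, adjusted p = 0.0116, edgeR's quasi-likelihood test), in a fit in which 16144 windows had p below 0.0001. Without M48, a choice made after seeing the data, the log2 fold change was -2.98 (p = 9.33e-06, adjusted p = 0.787, same test), with 221 such windows, so the adjusted call rests on the fit with M48. The 17 also took part in choosing this window, so these p-values are not independent of that choice. The next windows of the region, to 27931000, were less low in kidney disease, with log2 fold changes of -1.30 and -0.87.

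**Figure D2:**
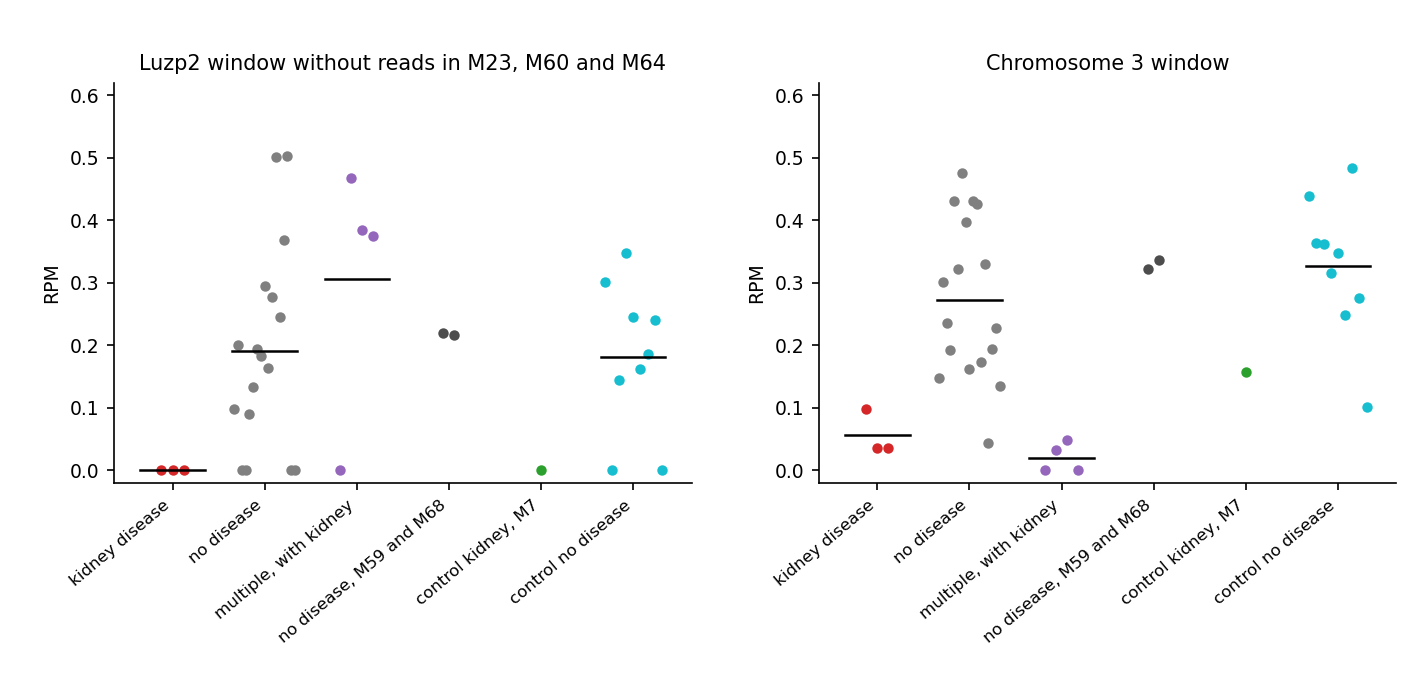
RPM of each animal (points) and group means (bars) at the Luzp2 window of chromosome 1 (left) and at the chromosome 3 window (right). The 3 kidney disease animals lie at 0 on the left, where 4 of the 17 no disease animals and 2 of 9 control lineage animals also lie, and on the right the 4 multiple disease animals lie at or under 0.0481 RPM.

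Most increased windows missed the threshold by the other tests. Of the 8, DESeq2 had p below 0.0001 at 2 (Ranbp17 and Ank2) and edgeR's exact test at 3 (these and the chromosome 2 window at 81745001), against 18 and 19 of the 25 decreased windows. Over all 2464876 windows tested, 37 passed by DESeq2 and 214 by the exact test. The 33 windows were chosen by p below 0.0001 on the same counts, so these numbers are a description. The window at 66074001 of chromosome 1, with the smallest p of the 8, had p = 0.0172 by DESeq2 and 0.0016 by the exact test. At 3 of the 8 the groups did not overlap. The study's annotation lists no gene for the chromosome 2 window among these, and the pair on chromosome 1 is not in that annotation. On chromosome 1 (66063001 to 66064000) M23, M60 and M64 had 0.425, 0.624 and 0.534 RPM, and the 17 had 0.0297 to 0.388 RPM (log2 fold change 1.26 ± 0.30 SE, p = 5.35e-05, edgeR's quasi-likelihood test). Also on chromosome 1 (62983001 to 62984000) they had 0.572, 0.615 and 0.641 RPM against 0.104 to 0.531 RPM (1.14 ± 0.27 SE, p = 7.52e-05). On chromosome 2 (81745001 to 81746000) the values were 1.09, 0.927 and 1.85 RPM against 0.387 to 0.917 RPM (0.79 ± 0.19 SE, p = 8.85e-05). The margin at the chromosome 2 window was small, since M60 at 0.927 RPM stood just above the highest no disease animal. Without M64 the log2 fold change at this window was 0.51 (p = 0.0233, edgeR's quasi-likelihood test).

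Ranbp17, of the importin beta family of nuclear transport receptors, had an increased window on chromosome 10 (18429001 to 18430000). M23 had 0.784 RPM, M60 had 0.523 RPM and M64 had 0.997 RPM, against 0.183 to 0.578 RPM with a median of 0.323 RPM in the 17. The groups overlapped by 1 no disease animal above M60 (log2 fold change 1.10 ± 0.24 SE, p = 1.63e-05, edgeR's quasi-likelihood test).

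At Ank2, which codes for an ankyrin that anchors membrane proteins to the cytoskeleton (chromosome 2, 231465001 to 231466000), M23 and M64 had 0.849 and 0.997 RPM. M60 had 0.413 RPM, inside the 0.238 to 0.594 RPM of the 17, of which 3 lay above it. The log2 fold change was 1.03 ± 0.25 (SE, p = 6.14e-05, edgeR's quasi-likelihood test).

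A pair of increased DHRs lay close to each other on chromosome 1, at 66062001 to 66065000 and 66071001 to 66075000. At the second (window 66074001 to 66075000) M23, M60 and M64 had 0.915, 0.688 and 0.427 RPM, and the 17 had 0.0143 to 0.599 RPM, with 2 of them above M64 (log2 fold change 1.41 ± 0.31 SE, p = 1.18e-05, edgeR's quasi-likelihood test). On chromosome 14 (16053001 to 16054000) M23 at 0.310 RPM lay under 4 of the 17, while M60 and M64 had 0.633 and 0.784 RPM.

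The longest DHR covered 43000 bp of chromosome 8 (4292001 to 4335000). Over it M60 and M64 had 0.807 and 1.00 RPM per kb, but M23 had 0.447, near the no disease median of 0.464. The no disease animals ran from 0.0899 to 0.774 RPM per kb, so M23 lay in the middle of their range. Over the whole region M60 and M64 differed from the 17 and M23 did not. At the window with the smallest p (4323001 to 4324000) M23 had 0.784 RPM and the 17 had a median of 0.674 RPM.

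Inside the 75 to 78 Mb stretch, the windows with the smallest p were at 76956001 (1.03 RPM in kidney disease, 0.372 RPM in no disease, log2 fold change 1.43, p = 4.34e-07) and at 77048001 (0.596 and 0.211 RPM, log2 fold change 1.49, p = 2.32e-06, edgeR's quasi-likelihood test).

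The neighbours of the DHRs are given as a description, with no test of one profile against the other. Around decreased windows the median log2 ratio was -1.31 at the window itself, -0.27 in the window before it and -0.14 in the window after, so that the difference was mostly 1 window wide. Around increased windows it was 1.05, 0.60 and 0.42, and it stayed above 0 at every distance up to 10 kb on either side. M23 departed from this at several distances, with medians of -0.28, -0.16 and -0.16 at 3, 5 and 10 kb after the increased windows. M64 had -0.12 at 4 kb before them, and M60 stayed above 0 at every distance. The increased profile rests on 6 to 8 DHRs at each distance, among them the 43000 bp region of chromosome 8 and a pair on chromosome 1 that lie in each other's flanks. The windows were chosen for their difference, which fixes the height of the centre.

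**Figure D3:**
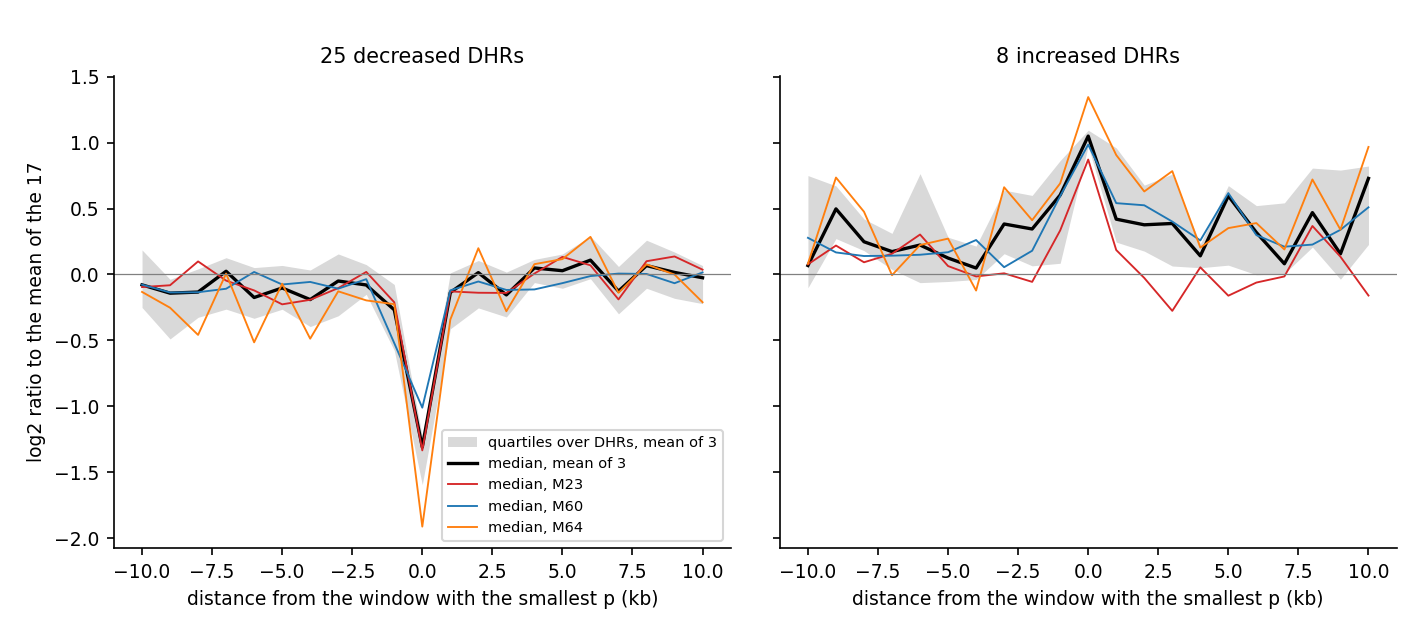
Median log2 ratio of RPM plus 0.05 to the mean of the 17 no disease animals, by distance in kb from the window with the smallest p, for the 25 decreased (left) and 8 increased DHRs (right); the grey band spans the quartiles over DHRs and coloured lines are single animals, over the neighbours that have a mean of 10 reads. The dip of -1.31 on the left is 1 window wide, and the rise of 1.05 on the right has shoulders of 0.60 and 0.42.

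The levels of these windows were also read in the 9 control lineage animals with no disease, which had no part in choosing them. Decreased windows had a median of 0.345 RPM and increased windows 0.407 RPM there, against 0.382 RPM over all windows. The median percentile among all windows was 29.4 for decreased windows, with a range of 2.28 to 97.7, and 64.8 for increased windows, with a range of 10.4 to 97.7. The kidney disease animals lay below all 9 of these animals at 11 of the 25 decreased windows, where 0.398% of all windows have this order, and above them at 1 of the 8 increased windows, where 0.408% do. The kidney disease side of this comparison is the one that chose the windows. M64 was the lowest of the 3 at 14 decreased windows and the highest at 6 increased windows. It is also the shallowest of the 3 libraries, with a median of 3 reads and no reads at 6 of the decreased windows, where M23 had a median of 9 reads and M60 of 23. The part of depth in these extremes was not tested.

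The direction of the 33 DHRs was then read in other animals with kidney disease, of which all but M7 are also tagged lean. Against the mean of the 17, the 25 decreased windows were lower in M57 at 17 (median log2 ratio -0.21), in M58 at 15 (-0.23), in M63 at 17 (-0.33) and in M48 at 15 (-0.63). The 8 increased windows were higher in M57 at 7 (median 0.35), in M58 at 6 (0.28), in M63 at 8 (0.83) and in M48 at 1 (-0.75). Control lineage kidney disease animal M7 had 20 lower (-0.40) and 7 higher (0.52), and control lineage multiple disease animal M17 had 15 lower (-0.16) and 3 higher (-0.43). These ratios share the 17 animals with the contrast that chose the windows.

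Animals with no kidney disease moved the same way against that reference. M59 had 18 of 25 lower (-0.25) and 5 of 8 higher (0.08), M68 had 19 (-0.18) and 8 (0.15), and the mean of the 9 control lineage animals had 22 (-0.15) and 8 (0.23). At decreased windows the single animals tagged with kidney disease outside the comparison thus had 15 to 20 in this direction, and M59 and M68 had 18 and 19. Over all windows, 61.4% were lower and 38.6% higher in M48. In M57, M58, M63, M7, M17, M59, M68 and the mean of the 9, 51.1 to 53.4% of all windows were lower and 46.6 to 48.9% higher. At increased windows M63 and M7 had the highest medians.

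Against the 9 control lineage animals, which share nothing with that contrast, the mean of the 4 multiple disease animals was lower at 13 of the 25 decreased windows (median -0.02) and higher at 4 of the 8 increased windows (-0.01). Singly, M57 had 10 and 5 in the direction of the kidney disease animals, M58 had 9 and 3, M63 had 12 and 5, M48 had 14 and 0, and M7 had 12 and 4. Control lineage multiple disease animal M17 had 9 and 2, with medians of 0.27 and -0.70, opposite to the kidney disease animals. The mean of the 3 kidney disease animals had 25 (-1.04) and 8 (0.79). Singly, M23 had 25 and 6, M60 had 25 and 7, and M64 had 25 and 8. No disease animals M59 and M68 had 9 and 2 and 9 and 1. Over all windows, 61.2% were lower than this reference in M48, 51.6% in M57 and 52.1% in M7, and 52.8% in the mean of the 4.

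**Figure D4:**
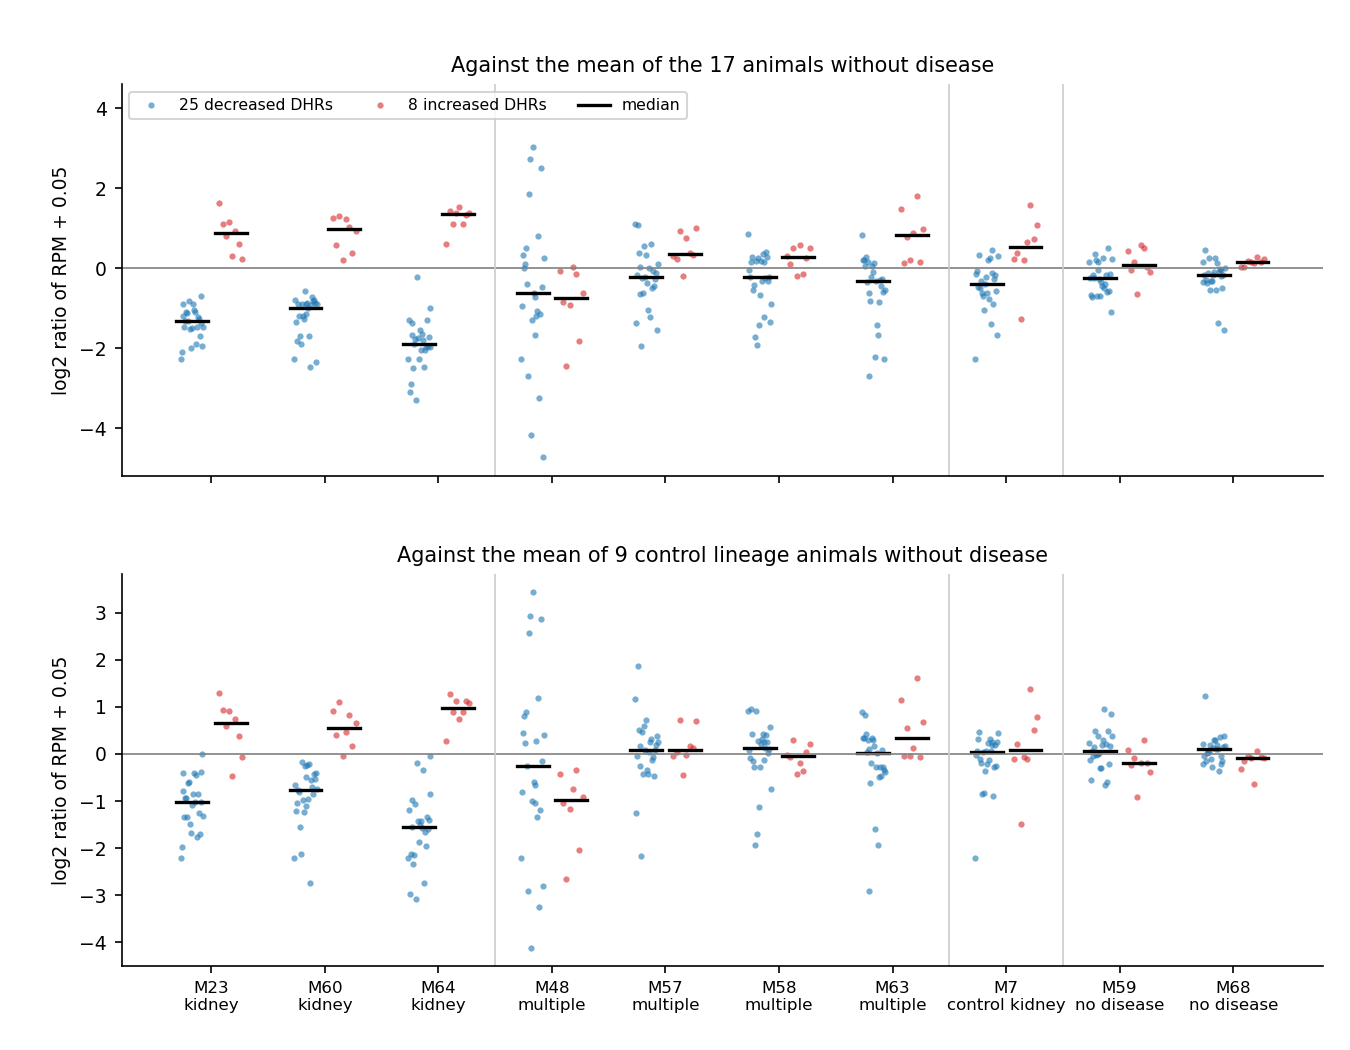
Log2 ratio of RPM plus 0.05 at each of the 25 decreased (blue) and 8 increased DHRs (red) in single animals, against the mean of the 17 no disease animals (top) and of the 9 control lineage animals with no disease (bottom), with medians as bars. In the upper panel blue and red stay apart in M23, M60 and M64. In the lower panel they overlap in M23, where red reaches down to -0.46. The medians of M57, M58 and M7 lie near 0 there for both.

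By edgeR's quasi-likelihood test of the 4 multiple disease animals against the 17, the decreased windows with p below 0.05 in the same direction were 5 of 25, where 2.65% of all windows were lower at that level, and the increased windows were 3 of 8, where 10.1% were higher. M48 weighs on this fit. Its library had 20151792 reads, 19.6% of windows without reads and 37.2% of its reads in the densest 5% of windows, and windows with p below 0.0001 numbered 16144 with it and 221 without it. Without M48 the counts were 5 of 25 (2.8% of all windows lower) and 5 of 8 (2.19% higher). The 17 animals are common to this fit and the one that chose the windows.

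The 5 decreased windows without M48 were the chromosome 3 window, Lpar1, AABR07035107.1, the chromosome X window and the 16000 bp region of chromosome 16. At the chromosome X window and the chromosome 16 region the no disease mean holds the high values of M24. Over the chromosome 16 region M57, M58 and M63 had 0.686, 0.728 and 0.567 RPM per kb. M23, M60 and M64 had 0.604, 0.566 and 0.561. The 9 control lineage animals had 0.403 to 0.719 RPM per kb with a median of 0.516, so none of these animals lay under their range. At Lpar1, M57 had 0.268 RPM, M58 had 0.0801 RPM and M63 had 0.225 RPM, M7 had 0.189 RPM and M59 and M68 had 0.498 and 0.344 RPM. The 9 control lineage animals had 0.102 to 0.507 RPM at Lpar1, so only M58 lay under their range. M48 had 3.19 RPM at Lpar1, above every other animal named there.

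Among the 5 increased windows were the chromosome 8 region, the chromosome 14 window and the 3 windows of chromosome 1. On chromosome 8 M57, M58 and M63 had 1.37, 0.961 and 1.35 RPM and M7 had 1.45 RPM at the window with the smallest p, against 0.214 to 1.13 RPM in the 17 and 0.206 to 1.25 RPM in the 9 control lineage animals. M57, M63 and M7 lay above both ranges and M58 inside them. At chromosome 1, 62983001 to 62984000, M63 had 1.09 RPM and M7 had 0.914 RPM, above the highest of both no disease groups at 0.531 and 0.555 RPM, while M57 and M58 had 0.368 and 0.240 RPM.

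At Dip2b, Agbl1 and the chromosome 16 window at 38183001, M57, M58, M63 and M7 lay above all 3 kidney disease animals. Dip2b had 0.334, 0.320 and 0.450 RPM in M57, M58 and M63 and 0.363 RPM in M7, near the no disease median of 0.378 RPM. Agbl1 had 0.602, 0.561 and 0.563 RPM in these 3 and 0.583 RPM in M7, above the no disease median of 0.459 RPM. All 4 multiple disease animals lay below the median of the 17 at 5 of the 25 decreased windows, and above it at 1 of the 8 increased windows. Without M48 these counts were 9 and 6. The share of all windows with this order was not counted, and the 17 also took part in choosing the windows. The counts are therefore a description only.

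The same windows were read within each treatment tag, with the animals that chose them, so the values are a description. Among animals tagged DMSO, M60 and M64 against 4 no disease animals, 22 of 22 decreased and 8 of 8 increased windows kept their sign, with p below 0.05 at 20 and 6 (edgeR's quasi-likelihood test). The rest of the 25 decreased windows did not pass the filter on reads within this tag. The Luzp2 window is among those left out, and no disease animals M67 and M69 of this tag had no reads there. Of all 2386191 windows tested within this tag, 73012 had p below 0.05. Of animals tagged Atrazine, M23 is the only one with kidney disease, and its difference from the 13 no disease animals had the same sign at all 25 and 8, with no replicate to test it. With the tag as a term in the fit, 33 of 33 had p below 0.05 and 15 had p below 0.0001, against 80769 and 74 of all 2464876 windows. Which DHRs are called depended on single animals: without M23, 34 DHRs were found outside the stretch and overlapped 9 of the 33, without M60 there were 117 and 9, and without M64 17 and 5. Most of the 33 windows no longer had p below 0.0001 in these 3 fits, with 9, 8 and 5 that did, while every one kept its sign and p below 0.05. Over all windows p was below 0.05 at 71063 of 2462380, 98215 of 2425841 and 48775 of 2481529. These fits share their animals with the one that chose the windows, so kept signs and p-values are a description.

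**Figure D5:**
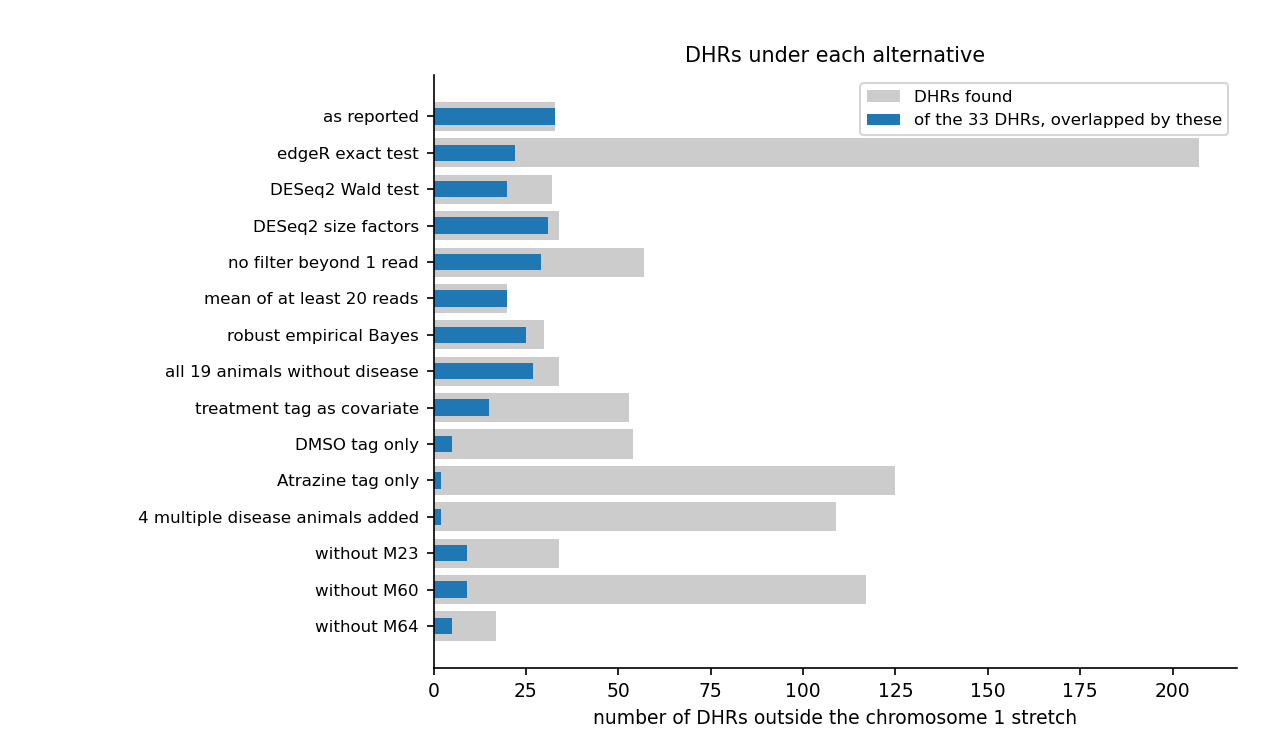
Number of DHRs outside the chromosome 1 stretch (grey bars) and number of the 33 reported DHRs that they overlap (blue bars) under each way of testing. DESeq2 found 32 DHRs that overlap 20 of the 33, whereas leaving out M60 gave 117 that overlap 9.

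Larger bins had almost no differences. With 10 kb bins 2 of 274867, or 0.000728%, had p below 0.0001, and with 100 kb bins 0 of 27802, or 0.0%, did by edgeR's quasi-likelihood test, with an adjusted p of 1.0 throughout. The first was on chromosome 1 (1270001 to 1280000), where M23, M60 and M64 had 2.35, 2.69 and 2.71 RPM per bin and the 17 had 1.25 to 2.13 RPM, without overlap (log2 fold change 0.67 ± 0.13 SE, p = 1.64e-05). The multiple disease animals had 0.572 to 1.77 RPM in this bin, within or under the no disease range. The second, on chromosome 3 (73260001 to 73270000), was high in M60 (2.10 RPM) and M64 (2.39 RPM) and not in M23 (0.196 RPM). A nearby bin of chromosome 1 (1220001 to 1230000) had 8.90, 10.2 and 10.2 RPM against 5.10 to 9.36 RPM (p = 0.000174). Of the 100 kb bins, the smallest p was 0.000588 on chromosome 14 (33500001 to 33600000), where 32.4, 30.7 and 30.6 RPM stood above the highest of the 17 at 29.6 RPM. The next were chromosome 17, 49400001 to 49500000 (log2 fold change -0.12), and chromosome 14, 16000001 to 16100000 (0.27).

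No whole-genome measure of the libraries differed detectably between the groups. In libraries thinned to 20000000 reads, windows without reads made up 6.59 ± 0.419% (SD, n = 3) in kidney disease and 6.66 ± 0.284% (SD, n = 17) in no disease, an exact permutation p of 0.788. The densest 5% of windows held 14.8 ± 0.621% and 14.9 ± 0.407% of the reads. Of 25 measures, these and the share of reads on each chromosome, the smallest two-sided exact permutation p was 0.452 (adjusted p = 0.972), where 1140 splits of the animals allow p as small as 0.000877.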

How the data were processed

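The deposited tables hold counts of reads in windows of 1000 bp for each animal, made by the authors by mapping trimmed ChIP-Seq reads to Rnor_6.0 with Bowtie2 and counting with MEDIPS, without normalization. Counts of the kidney disease table and, for the other animals, of the exposure table were used. The comparison columns of the authors (fold changes with raw and adjusted p-values) and 327 other columns of the 6 tables (RPKM values, repeated counts), were not used. Animal M1 has no counts.

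Tests took windows of 10 or more reads on average and ran in R 4.3.3 with edgeR 4.0.16 (TMM normalization, quasi-likelihood test, dispersion trend from 200000 random windows), and by DESeq2 1.42.0. A DHR starts at a window with p below 0.0001 and takes in neighbours within 1000 bp whose p is below 0.1. The adjustment for false discovery (Benjamini-Hochberg) covers every window tested. RPM uses TMM scaled library sizes, and log2 ratios of RPM use a pseudocount of 0.05 RPM. Because 28396854 reads gave M64 a median of 3 reads at the decreased windows, values of a window in 1 animal carry a wide counting error. Scripts in Python 3.11.15 with NumPy 2.4.6, SciPy 1.17.1, pandas 2.3.3 and Matplotlib 3.10.9 made regions, tables and plots, and the tests were checked on simulated counts.

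Named were the 12 DHRs with the smallest p in each direction outside 75 to 78 Mb of chromosome 1, 2 inside it, windows without reads in all 3 animals, and the 3 bins of 10 kb and of 100 kb with the smallest p. A single decreased DHR of these is not reported here. Other windows named, such as those of Stat5a, Klf12, chromosome X and the 16000 bp region of chromosome 16, were chosen after their values were seen. The members, lists and thresholds were chosen with earlier results of these data known. Planned gene lists were not applied, since no annotation of Rnor_6.0 was used here. Of 17 gene names, 15 matched RefSeq names (assembly GRCr8), and no coordinates of that assembly were used. Up to 10 libraries were sequenced per lane, and the lane of each is not given. Nothing says how animals are related, so p-values measure the spread between these animals.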

Additional observations from a re-analysis of the deposited data

Results flagged for a closer look

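The 4 multiple disease animals and the 9 control lineage animals with no disease were each read at the named windows and for library measures. A highest or lowest value far from all others was found in 8 of these 46 readings. Chance gives about 1 in 20 for independent readings, but here the same animals recur in them. All 8 were among the 4 multiple disease animals with kidney in the tag. M48 had 3.19 RPM at Lpar1, far above the other 3, and 0.163 RPM at Ranbp17 and 0.163 RPM at the increased window of chromosome 2 (81745001), far below them. Its library also stood apart with 19.6% of windows without reads and 37.2% of reads in the densest 5% of windows. M63 was high at the increased windows of chromosome 1, with 1.09 RPM at 62983001 and 0.825 RPM at 66074001, and M57 was high at the decreased window of chromosome 18 (62379001), with 0.736 RPM.

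At 2 decreased windows each kidney disease animal lay below the mean of the 17 no disease animals and each multiple disease animal above it. The log2 ratio of the 4 to the 17 was 0.26 at Agbl1 and 0.39 on chromosome 18 (62379001). The difference between the kidney disease and multiple disease animals was not tested.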

How the results depend on the processing

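No named window changed sign under the alternatives run. All of these hold kidney disease animals that chose the windows, so kept signs are a description. The fit of the 4 multiple disease animals alone against the 17 is not among them. In that fit 18 of 25 decreased and 7 of 8 increased windows had the sign of the kidney disease animals. Luzp2 (log2 fold change 0.76) and Agbl1 (0.30) did not. With the 4 multiple disease animals added, the decreased windows kept their sign at 23 of 24, the exception being Pdik1l (log2 fold change of -1.56 as reported, 0.18 with them). Over the named windows, values stayed past their threshold in 159 alternatives and missed it in 122, and of the other results 75 kept within their limits and 38 moved. Windows with p below 0.0001 numbered 58 as reported, 214 by edgeR's exact test, 37 by DESeq2, 93 with no filter beyond 1 read, 127 in the Atrazine tag alone, 128 with the 4 multiple disease animals added, and 23 (without M64) to 122 (without M60) without 1 kidney disease animal. DHRs in all (50) were 214 by the exact test, 125 in the Atrazine tag, 113 with the 4 added and 22 (M64) to 122 (M60) without 1 animal. DHRs outside the stretch (33) were 207 by the exact test, 57 with no filter, 20 at a mean of at least 20 reads, 53 with the tag as a covariate, 54 in the DMSO tag, 125 in the Atrazine tag, 109 with the 4 added and 17 (M64) to 117 (M60) without 1 animal. The decreased share (75.8%) was 99.2% in the Atrazine tag, no longer a majority at 47.4% with no filter and 17.4% with the 4 added, and 79.4 (M23) to 90.6% (M60) without 1 animal. Past the false discovery rate there were 2 windows by the exact test and 3 with no filter. These 3 lie on chromosome 3 (73263001) and chromosome 14 (102569001 and 102570001), and their reads are mostly of M60 and M64. Windows without reads in all 3 (1) numbered 0 at a mean of at least 20 reads, 11 without M23, 2 without M60 and 2 without M64. The median log2 ratio of M7 at decreased windows was 0.03 against the 9 control lineage animals and -0.40 against the 17, on either side of 0. Bins of 10 kb (2) were 1 with DESeq2 size factors, 1 with the tag as a covariate and 0 (M64) to 6 (M23) without 1 animal, and bins of 100 kb (0) were 0 to 2 (M23) without 1 animal. The multiple disease fit had 221 windows without M48. The fit with the 4 multiple disease animals added holds M48 and was not run without it. Fits in the Atrazine tag hold M23 alone with kidney disease and assume that it varies like the 13 others. The causes were not tested. Leaving M48 out and leaving out the highest no disease animal were chosen after seeing the data. No paired analysis was possible because no animal stands in both groups and the labels link none across them.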

Other observations

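The 8 increased DHRs outside the 75 to 78 Mb stretch of chromosome 1 were compared with the stretch itself across the 17 no disease animals, as 8 relations. At chromosome 1, 66062001 to 66065000, RPM went with RPM of the stretch with Pearson's r = 0.73 (permutation p = 0.00124, adjusted p = 0.00524, n = 17) and Spearman's rho = 0.52 (permutation p = 0.0348, adjusted p = 0.278). At 66071001 to 66075000 r was 0.72 (permutation p = 0.00131, adjusted p = 0.00524, n = 17) and rho 0.36 (permutation p = 0.159, adjusted p = 0.533). Without M22 and M40, the animals farthest from the median of the stretch, r was 0.46 and 0.45, so the relation rests in large part on them. Within the 13 no disease animals tagged Atrazine, which include M22 and M40, r was 0.88 at both, and the 4 tagged DMSO are too few. In the 9 control lineage animals r was 0.67 and 0.58. The other 6 relations had an adjusted permutation p of at least 0.481.

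M24 had 5.33 RPM per kb over the 16000 bp region of chromosome 16 (64921001 to 64937000), where the 9 control lineage animals with no disease had 0.403 to 0.719 and control lineage multiple disease animal M17 had 1.70 RPM per kb. A window of chromosome 5 (132850001 to 132851000) had no reads in M60 and M64 and 3 in M23, and 0 to 0.755 RPM in the 17 no disease animals, of which 5 lay within the kidney disease range, while the 9 control lineage animals had 0.174 to 0.389 RPM.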
